A study of Mus musculus with 5 samples.

Results

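The collagen genes were followed as a family through liver non-parenchymal cells. Every gene whose symbol reads Col, a number, a and a number was taken, which gave 44 of the 19736 genes with a molecule in any library, 39 of them listed for all 5 libraries. The groups are partial inferior vena cava ligation (pIVCL, 3 libraries) and sham surgery (2 libraries), in male wild-type mice aged 9 weeks, with livers taken 2 weeks after surgery. The ligation raises hepatic venous pressure and is used as a mouse model of congestive hepatopathy. Single cells were captured with BD Rhapsody whole-transcriptome chemistry after pronase and collagenase perfusion and removal of most hepatocytes, dead cells and erythrocytes. Both sham libraries and pIVCL 1 belong to batch 2021.3, and pIVCL 2 and pIVCL 3 to batch 2021.7. Nothing in the labels says that the libraries of a group are different animals, and the spread behind each p-value could then be a technical one.

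Collagens are secreted or membrane-bound proteins built from chains that wind into a triple helix. Fibrillar collagens (types I, III and V among them) form the cables of scar tissue, fibril-associated collagens sit on those cables, type IV forms the sheet of basement membranes, and type VI forms beaded filaments between cells. In liver, hepatic stellate cells and portal fibroblasts are the known sources of fibrillar collagen, and sinusoidal endothelium is known for lacking a continuous basement membrane.

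The most abundant collagen transcript here, Col4a1, and its partner Col4a2 encode the 2 chains that make up the common form of type IV collagen, and both genes start from 1 shared stretch of DNA in opposite directions. Their promoters are shown because these genes are the members described in nearly every cell class below. Each covers 250 bases before to 50 bases after the start of the gene, from RefSeq on GRCm38.p6, and is read 5′ to 3′ on the gene's own strand. The capitals mark the 78 bases that both windows hold, as reverse complements of each other. The Col4a1 window is chr8:11312777-11313076 on the minus strand and the Col4a2 window chr8:11312555-11312854 on the plus strand.
Col4a1: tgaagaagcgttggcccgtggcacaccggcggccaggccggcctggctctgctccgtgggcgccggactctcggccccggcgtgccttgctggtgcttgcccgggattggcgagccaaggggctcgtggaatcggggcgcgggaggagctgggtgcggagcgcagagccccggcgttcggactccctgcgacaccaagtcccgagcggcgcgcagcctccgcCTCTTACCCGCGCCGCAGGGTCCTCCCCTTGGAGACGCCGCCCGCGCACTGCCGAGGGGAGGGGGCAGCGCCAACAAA
Col4a2: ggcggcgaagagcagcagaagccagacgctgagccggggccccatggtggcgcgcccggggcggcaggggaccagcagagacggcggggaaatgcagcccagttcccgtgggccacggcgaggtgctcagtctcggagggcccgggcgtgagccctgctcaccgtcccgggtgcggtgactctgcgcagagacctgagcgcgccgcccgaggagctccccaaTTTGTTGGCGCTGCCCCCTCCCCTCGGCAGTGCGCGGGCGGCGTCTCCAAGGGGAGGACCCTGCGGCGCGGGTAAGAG
The annotated start sites lie 21 bases apart. The windows hold 74.0% G and C for Col4a1 and 73.7% for Col4a2. Neither window holds TATAAA on either strand, each holds CCAAT at 1 position, and GGGCGG occurs at 1 position for Col4a1 and at 3 for Col4a2. Matches of different motifs may overlap and were counted separately. Of 32851 promoter windows of the same length, 13.6% hold TATAAA, 37.4% CCAAT and 35.7% GGGCGG. Of the 38 windows of the 35 collagen genes found in the promoter table, 5, 13 and 23 hold them. Members without an entry are Col1a1, Col14a1, Col5a2, Col12a1, Col22a1, Col2a1, Col26a1, Col4a3 and Col9a3. The type IV genes are 1 of 8 pairs of collagen genes that follow each other in the annotation, among them Col3a1 and Col5a2, Col6a1 and Col6a2, and Col4a3 and Col4a4.

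The deposited tables hold 2680, 5000 and 3344 cells in pIVCL 1, 2 and 3, against 4735 and 4056 in sham 1 and 2. They hold 12448260 to 24400965 molecules in pIVCL and 25035721 to 30523228 in sham, with medians of 2439.5 to 4226.5 and 5125 to 5416 molecules per cell. Between 2.09 and 29.9% of pIVCL cells and between 5.52 and 6.17% of sham cells held over 25% mitochondrial molecules and were left out. Pairs of libraries shared 8 to 30 cell labels. After filters and doublet removal 16672 cells and 266000 collagen molecules remained, of 297825 collagen molecules deposited. Cells were clustered without the collagen genes, and each cell type named below is a cluster that resembles that type by its markers (stellate-like, endothelial-like and so on).

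Counted molecules were concentrated in few members. Col4a1 had 69953 molecules, Col14a1 40814, Col1a2 34444, Col4a2 32083, Col1a1 25149 and Col3a1 22478, together 84.6% of the collagen molecules of retained cells. Col13a1 followed with 12788, then Col6a1 (4250), Col5a1 (4048), Col5a2 (4046), Col6a2 (3798), Col6a3 (2458), Col27a1 (2449), Col8a1 (1237) and Col16a1 (1029). These are numbers of molecules captured and not levels per length. In all, 37 members had at least 20 molecules, 23 had at least 200, and 7 had fewer than 20 (Col28a1, Col6a4, Col22a1, Col2a1, Col26a1, Col9a1 and Col10a1, the last with 0 in retained cells).

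Each abundant member was found mainly in 1 or a few cell classes. Endothelial cells held 67.0% of Col4a1, 66.6% of Col4a2 and 88.6% of Col13a1 molecules, the last encoding a transmembrane collagen of cell junctions. Stellate cells held 83.3% of Col14a1, a fibril-associated collagen that binds the surface of type I fibrils, with 68.9% of Col5a1 and 65.3% of Col16a1. These shares pool all libraries, and most stellate cells came from pIVCL: stellate cells held 87.1% of Col14a1 in the 3 pIVCL libraries and 44.7% in the 2 sham libraries. Fibroblasts, 99 cells in all, held 48.6% of Col1a1 and 39.2% of Col1a2, the 2 chains of type I collagen.

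Less abundant members had other places. Fibroblasts held 79.7% of the 133 Col6a5, 72.9% of the 229 Col8a2 and 65.1% of the 169 Col12a1 molecules. Mesothelial cells, which line the liver surface, held 50.9% of the 57 Col4a6 molecules. Kupffer cells, the resident macrophages, held 64.9% of the 404 molecules of Col11a2, a fibrillar chain best known from cartilage. The 553 Col4a5 molecules were split between fibroblasts (42.7%), cholangiocytes (19.7%) and mesothelial cells (18.4%). Endothelial cells held 76.1% of Col17a1, 70.7% of Col4a3 and 65.0% of Col23a1, and the 544 molecules of Col18a1, the precursor of endostatin, were spread over endothelial cells (21.5%), cholangiocytes (19.3%) and other classes.

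Across all retained cells, collagens were at 5144, 3823 and 3569 MPM in pIVCL 1, 2 and 3, against 1733 and 2063 MPM in sham 1 and 2, where MPM is molecules per 1000000 molecules of the cells summed, with no further scaling. All 3 pIVCL libraries lay above both sham libraries. Which cells held those molecules also differed. Stellate cells held 37.6, 50.3 and 37.2% of the collagen molecules of the pIVCL libraries, against 7.21 and 2.77% in sham. Endothelial cells held 20.1, 23.9 and 24.3% in pIVCL, against 58.4 and 44.2% in sham. The groups did not overlap in either share. Fibroblasts held 10.7, 1.86 and 12.3% in pIVCL, against 21.0 and 38.8% in sham, and here too the pIVCL libraries were all lower. Stellate cells themselves were 267, 311 and 102 cells in pIVCL (10.6, 9.20 and 3.71% of cells) and 68 and 26 cells in sham (1.58 and 0.700%), so a share of a library's collagen moves with how many cells of each type were captured. Summed values over members are given with no test.

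**Figure D1:**
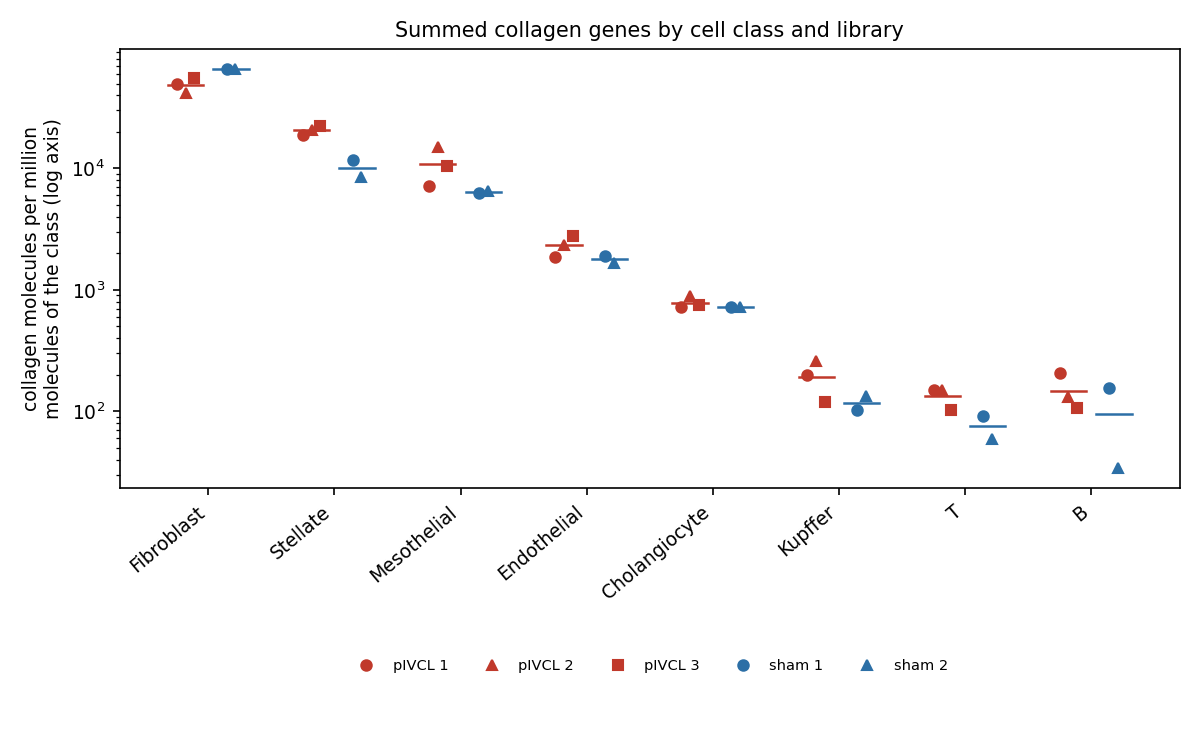
Summed collagens in MPM of a cell class (log axis) in 8 classes, with 1 marker per library, pIVCL left of sham and a bar at the group mean. Fibroblasts lie highest at 41406 to 65583 MPM over all libraries, and stellate cells of the 3 pIVCL libraries (19005 to 22406) lie above those of the 2 sham libraries (8520 and 11778).

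Within stellate cells the summed collagens were at 19005, 20642 and 22406 MPM in pIVCL, against 11778 and 8520 in sham, with means of 20684 ± 1701 (SD, n = 3) and 10149 ± 2303 (SD, n = 2). Every pIVCL library was above both sham libraries. The median stellate cell held 85, 105 and 138.5 collagen molecules in pIVCL and 43.5 and 48.5 in sham. Here 16 of the 44 members passed the filter on low counts, among 7899 genes tested, and 2 of them rose, where 0.19% of all genes tested rose. None of the 16 fell (7 had an unadjusted p under 0.05, all of them higher), where 0% of all genes fell. The median log2 fold change was 0.64 over the 16 members and 0.00 over all genes tested. In 8 of the 16 the libraries of the groups did not overlap, all 8 higher in pIVCL, where 31.8% of all genes tested did not overlap.

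Col14a1 was the most abundant member in stellate cells. It had 9200.0, 9830 and 9564 TMM-scaled counts per 1000000 (CPM) in pIVCL 1, 2 and 3, against 3982 and 3118 CPM in sham 1 and 2, with means of 9531 ± 316 (SD, n = 3) and 3550 ± 611 (SD, n = 2). The 3 pIVCL libraries lay close together and far above both sham libraries. Col14a1 rose 2.68-fold in pIVCL, with a log2 fold change of 1.42 ± 0.21 (SE) and an adjusted p of 0.0178 by edgeR's quasi-likelihood test with Benjamini-Hochberg adjustment. With each cell thinned to 1000 molecules, Col14a1 was found in 99.6, 99.7 and 100% of stellate cells in pIVCL and in 94.1 and 88.5% in sham (26 cells in sham 2), and without thinning in every stellate cell of each library. The thinned shares in T cells were 2.53, 0 and 0.637% in pIVCL and 2.11 and 0.529% in sham, at median depths of 2386 to 2688 and 3123 to 3229 molecules per T cell, against 4504 to 5369 and 3470 to 5333.5 per stellate cell. The log2 fold change was 1.39 in batch 2021.3 alone (adjusted p = 0.00278, with pIVCL 1 assumed to vary like the sham libraries). Leaving out sham 2, pIVCL 2 or pIVCL 3 ended the call, at log2 values of 1.26, 1.40 and 1.42 and adjusted p of 0.225, 0.125 and 0.146.

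Of the type IV chains, Col4a2 rose in stellate cells. It had 1117, 1652 and 1724 CPM in pIVCL and 566 and 501 CPM in sham, with means of 1498 ± 332 (SD, n = 3) and 534 ± 45.8 (SD, n = 2). The groups did not overlap, with pIVCL 1 the lowest of the ligated libraries. Its log2 fold change was 1.48 ± 0.24 (2.80-fold, edgeR adjusted p = 0.0341). Col4a1 had 2548, 3310 and 3899 CPM in pIVCL and 1580 and 1094 CPM in sham, again without overlap, at a log2 value of 1.28 ± 0.25 that did not pass (edgeR adjusted p = 0.0710). In batch 2021.3 alone Col4a2 was at 1.07 (adjusted p = 0.0657) and with batch as a term at 1.06 (adjusted p = 0.0543). Leaving out sham 1, sham 2, pIVCL 2 or pIVCL 3 also ended its call, at adjusted p of 0.122, 0.259, 0.216 and 0.188.

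None of the 7 fibrillar members tested in stellate cells passed edgeR's test, and 6 of them had positive values. Col3a1, the single chain of type III collagen, had 1969, 2494 and 2769 CPM in pIVCL against 1358 and 762 CPM in sham (log2 value 1.17, edgeR adjusted p = 0.129). Col1a2 had 2034, 2654 and 2679 CPM in pIVCL against 1499 and 1191 CPM in sham (log2 value 0.86, adjusted p = 0.174). In both genes every pIVCL library was above both sham libraries. Col1a1 had 580, 487 and 678 CPM in pIVCL against 502 and 221 CPM in sham, which overlap (log2 value 0.64, adjusted p = 0.539). Col5a1, a chain of type V collagen that is built into type I fibrils, had 691, 776 and 897 CPM against 475 and 352 CPM without overlap (log2 value 0.92, adjusted p = 0.168). Col5a2, Col5a3 and Col27a1 were at 0.21, -0.26 and 0.04.

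Col16a1, the other fibril-associated member tested, had 179, 199 and 164 CPM in pIVCL and 115 and 71.6 CPM in sham (log2 value 0.91, edgeR adjusted p = 0.267). The 3 chains of type VI collagen lay near 0, at -0.13 for Col6a1, 0.13 for Col6a2 and -0.03 for Col6a3, each with overlapping libraries. Col6a1 had 482, 332 and 380 CPM in pIVCL against 539 and 319 CPM in sham. Col8a1, a short-chain network collagen, was at 0.65 (adjusted p = 0.644). Col13a1 was the last member tested, at 2.44, 37.6 and 27.8 CPM in pIVCL and 20.2 and 111 CPM in sham, and the summed list of 10 endothelial markers in the same cells was 486, 2405 and 2473 MPM in pIVCL and 1540 and 3410 in sham. It is lowest in pIVCL 1 and highest in sham 2 in both cases, and the part of endothelial RNA in this value was not tested.

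**Figure D2:**
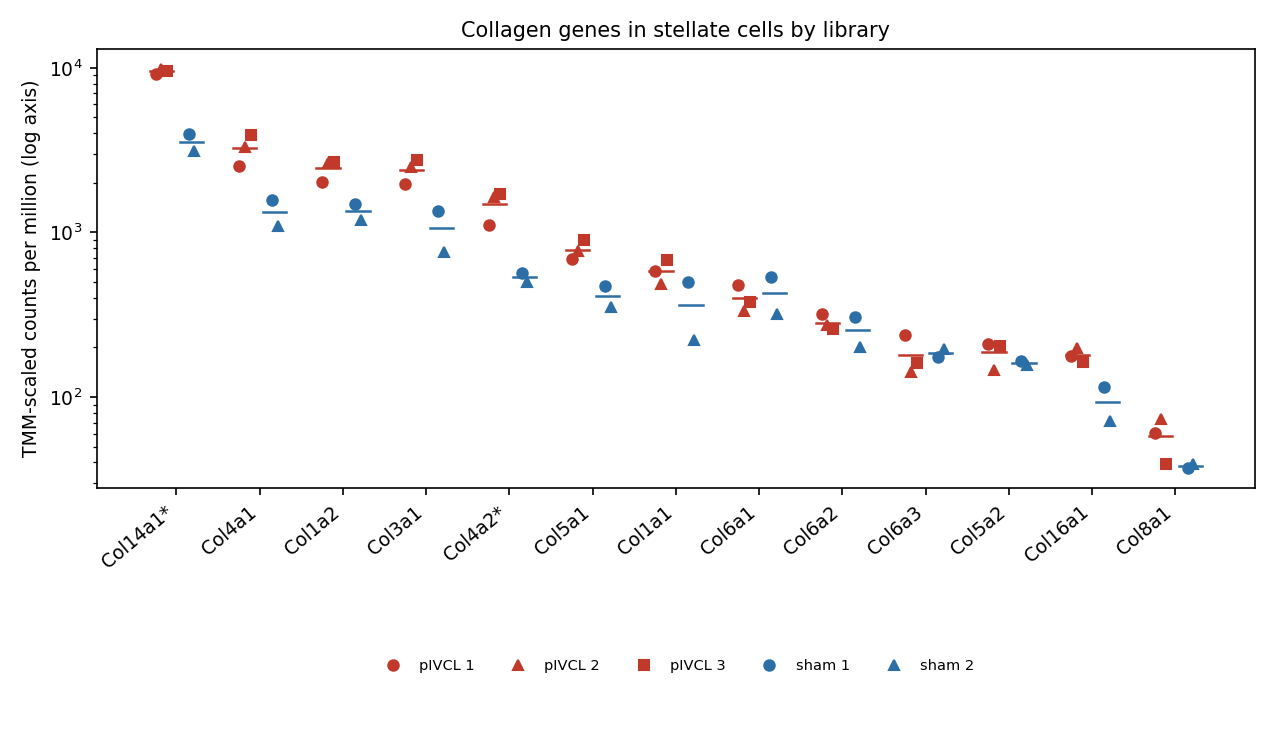
TMM-scaled CPM (log axis) in stellate cells for the 13 members with at least 200 molecules there, 1 marker per library, pIVCL left of sham, bars at group means and an asterisk at an edgeR adjusted p under 0.05. Col14a1 and Col4a2 carry the asterisk, and the Col6a1, Col6a2 and Col6a3 markers of the groups lie among each other.

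Markers of other cells moved with the group inside the stellate class. The 12 hepatocyte markers summed to 1773, 2297 and 1631 MPM in pIVCL and 486 and 284 in sham, with 10 of the 12 higher in every pIVCL library, 0 of them at 0 in pIVCL and up to 3 at 0 in a sham library. The 14 stellate markers summed to 32630, 23156 and 25263 MPM in pIVCL and 30920 and 27223 in sham. The 7 smooth muscle markers summed to 777, 1576 and 1259 MPM in pIVCL and 933 and 745 in sham, and the 11 fibroblast markers to 127, 91.1 and 76.4 in pIVCL and 180 and 185 in sham. The 10 Kupffer markers summed to 184, 301 and 315 MPM in pIVCL and 149 and 132 in sham. Of the 10, 4 were higher and 0 lower in every pIVCL library. The part of these lists in the collagen values was not tested.

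The make-up of stellate collagen by structural group also differed between libraries. Fibril-associated members held 47.5, 44.6 and 41.4% of stellate collagen molecules in pIVCL and 35.8 and 37.9% in sham. Beaded filament members held 5.25, 3.32 and 3.41% in pIVCL and 8.92 and 8.51% in sham. Fibrillar members held 28.1, 29.5 and 30.9% against 35.7 and 32.4%, and basement membrane members 18.6, 22.1 and 23.9% against 18.8 and 19.0%. Of these only the basement membrane shares overlapped between groups.

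**Figure D3:**
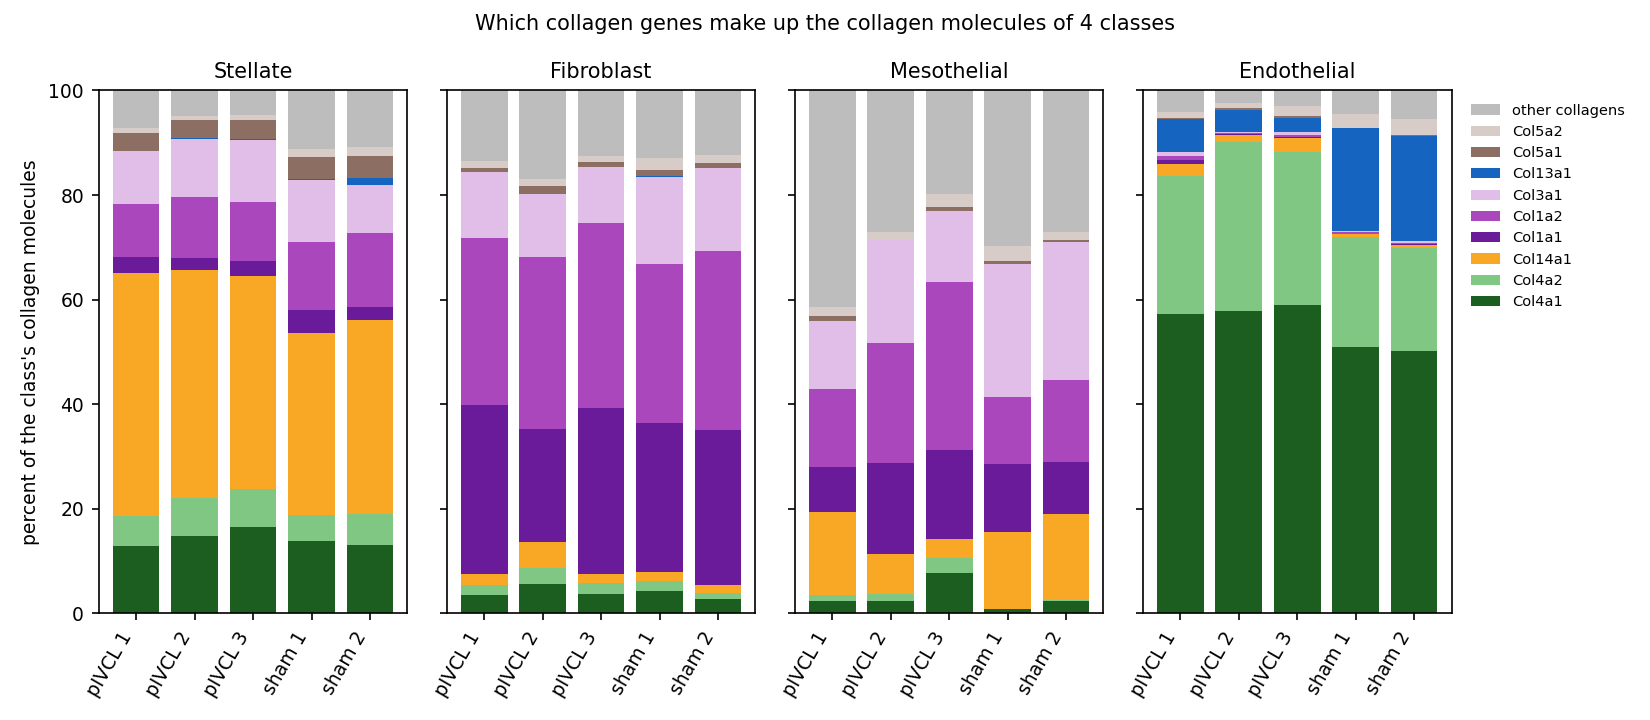
Percent of a class's collagen molecules held by 9 named members and by the other collagens, as stacked bars for each library in stellate cells, fibroblasts, mesothelial cells and endothelial cells. Col14a1 is the largest segment in stellate cells, Col1a1 and Col1a2 in fibroblasts, and Col4a1 in endothelial cells.

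Among the named classes fibroblasts had the highest summed collagens, but with 21, 8 and 13 cells in pIVCL and 17 and 40 in sham they were not tested. The class joins a cluster led by Mfap4, Mmp2 and Lum (35 pIVCL and 55 sham cells) and another led by Clec3b, Mfap5 and Pi16 (7 and 2 cells). The part of this mix in the values below was not tested. Col1a1 numbered 15961, 8965 and 17543 MPM in pIVCL and 18581 and 19493 in sham, and Col1a2 15768, 13576 and 19638 in pIVCL and 19824 and 22379 in sham. Both were lower in every pIVCL library. Col3a1 was at 6225, 5031 and 5867 MPM in pIVCL and 10914 and 10464 in sham, with no overlap. Col5a2 was at 641, 548 and 675 MPM in pIVCL against 1475 and 997 in sham, and Col6a3 at 1111, 1031.9 and 989 against 1885 and 1338, also lower in every pIVCL library. Col14a1 was at 1075, 2032 and 955 MPM in pIVCL and 1217 and 1041 in sham, which overlap. Col4a1 was at 1781, 2322 and 2084 in pIVCL and 2824 and 1791 in sham, and Col4a2 at 912, 1290 and 1187 in pIVCL and 1177 and 729 in sham, both overlapping. Type VI chains were high here as well, Col6a1 at 1838 to 2026 MPM in pIVCL and 1627 to 1983 in sham. The other members with at least 200 molecules (Col6a2, Col5a1, Col27a1, Col4a5 and Col15a1) had overlapping libraries or, for Col4a5, were lower in every pIVCL library, at 320, 322 and 151 against 377 and 402. How many of all genes lacked overlap was not taken in fibroblasts, and it was 31.5 to 44.2% in the tested classes. No result about these members is read from the lack of overlap.

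Mesothelial cells (16, 15 and 30 in pIVCL, 22 and 16 in sham) held collagens at 7230, 14896 and 10532 MPM in pIVCL and 6310 and 6550 in sham. Their Col1a2 was at 1069, 3420 and 3376 MPM in pIVCL and 810 and 1035 in sham. Col4a1 was at 165, 343 and 809 MPM in pIVCL and 47.6 and 151 in sham, and Col4a2 at 88.2, 215 and 312 in pIVCL and 5.95 and 15.9 in sham. In these 3 genes every pIVCL library lay above both sham libraries, on 1 to 843 molecules per library and with no test. The share of all genes without overlap was not taken in this class, and was 31.5 to 44.2% in the tested classes. No result about these genes is read from it. Col1a1 was at 628, 2604 and 1806 in pIVCL and 816 and 645 in sham, Col3a1 at 948, 2919 and 1430 in pIVCL and 1601 and 1719 in sham, and Col14a1 at 1146, 1130 and 368 in pIVCL and 935 and 1082 in sham, all overlapping.

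A cluster of 28 cells, 0.168% of retained cells, held 10.6% of all collagen molecules. Genes that led it include Eln, Ccn5, Acta2, Vegfd, Adamtsl2, Lox, Loxl1, Serpine2 and Myh11, genes of elastic fibres, contractile cells and cross-linking, and it was left without a name because it carried stellate, fibroblast, smooth muscle and hepatocyte markers together. It had 9, 9 and 7 cells in pIVCL and 2 and 1 in sham. Its median cell held 564 collagen molecules out of 8560.5, at 2.117 times the median depth of the cells' own libraries. The cluster held 34.5% of all Col1a1, 24.9% of Col1a2, 22.3% of Col3a1 and 37.0% of Col15a1 molecules, but 2.94% of Col14a1 and 2.30% of Col4a1. It supplied 24.96, 10.04 and 12.3% of the collagen molecules of the pIVCL libraries and 0.495 and 0.156% of those of sham. Whether these 28 barcodes hold single cells was not tested.

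Endothelial cells were the largest class, with 1494, 1617 and 707 cells in pIVCL and 2678 and 2365 in sham. Of the 44 members 23 were tested there, among 11353 genes. Col14a1, Col5a1 and Col6a3 rose, where 2.63% of all genes tested rose, and Col13a1 and Col27a1 fell, where 2.65% fell (5.28% in either direction). The median log2 fold change was 0.49 over the 23 members and 0.00 over all genes. The libraries of the groups did not overlap in 15 members, 9 higher and 6 lower in pIVCL, where 43.7% of all genes did not overlap. Col5a1, Col16a1, Col19a1 and Col25a1 passed the filter on low counts only through pIVCL, where they are high. Their direction was set by that filter, so nothing is drawn from their part in these counts or in the median. Only Col13a1 of the 5 kept its call when sham 1 or sham 2 was left out, and without pIVCL 1 there were 12 calls in place of 5, while the share of all genes called was 22.7% in place of 5.28%.

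Col13a1 fell in endothelial cells. It had 118, 99.5 and 70.2 CPM in pIVCL 1, 2 and 3 and 385 and 357 CPM in sham 1 and 2, with means of 95.8 ± 24.0 (SD, n = 3) and 371 ± 19.7 (SD, n = 2). The highest pIVCL library was far below the lowest sham library. The level was 3.85-fold lower in pIVCL, with a log2 fold change of -1.94 ± 0.20 (edgeR adjusted p = 0.00354). In batch 2021.3 alone it was -1.66 (adjusted p = 3.5e-05) and with batch as a term -1.66 (adjusted p = 0.00363). After thinning to 1000 molecules, 10.8, 9.59 and 7.52% of endothelial cells had a Col13a1 molecule in pIVCL and 29.8 and 27.3% in sham. Without thinning the shares were 29.3, 26.6 and 23.5% in pIVCL and 72.5 and 68.0% in sham. In T cells, which should lack this gene, the thinned shares were 0, 0 and 1.27% in pIVCL and 0.704 and 0% in sham, and the exact 95% limits for a count of 0 are 4.56% in pIVCL 1 (79 cells), 2.95% in pIVCL 2 (123) and 1.93% in sham 2 (189). Median depths were 4126 to 4509 molecules per endothelial cell in pIVCL and 4924 to 5154.5 in sham, and 2386 to 2688 per T cell in pIVCL and 3123 to 3229 in sham.

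The level of Col13a1 differed between endothelial subtypes as well. The subtypes were unevenly spread, with angiogenic cells numbering 625, 1031 and 478 in pIVCL and 59 and 55 in sham, and sinusoidal cells given no zone name 587, 237 and 63 in pIVCL and 1689 and 1621 in sham. The last are 3 clusters that fell short of the share of zone markers required for a name, although 1 has the pericentral markers Kit and Wnt2 and another the periportal markers Msr1 and Efnb2 among its 10 leading genes. In these cells together Col13a1 was at 183, 173 and 140 MPM in pIVCL and 410 and 384 in sham, the log2 value being -1.27 ± 0.16 (edgeR adjusted p = 0.00250), where 0.57% of genes tested in that subtype fell and 0.743% rose. The groups were spread unevenly over the 3 clusters, with 110, 346 and 431 pIVCL cells and 1983, 1051 and 276 sham cells. In the first Col13a1 was at 230 MPM, 174 and 0 (3 cells) in pIVCL and 438 and 403 in sham, in the second at 240, 257 and 291 in pIVCL and 400 and 394 in sham, and in the last at 109, 99.0 and 53.7 in pIVCL and 213 and 187 in sham. Each was lower in every pIVCL library, with no test by cluster. Angiogenic cells had 63.3, 70.5 and 63.1 MPM in pIVCL and 129 and 86.5 in sham, lower in each pIVCL library at -0.73 that did not pass (adjusted p = 0.242). Periportal cells had 219, 241 and 225 MPM in pIVCL and 423 and 323 in sham, at -0.74 that did not pass (adjusted p = 0.0718). Central vein cells had 2.33, 15.7 and 36.2 in pIVCL and 54.0 and 55.1 in sham, at -1.72 (adjusted p = 0.221). There Col13a1 passed the filter on low counts only through sham, where it is high, so nothing is drawn from that value. Pericentral cells, 13, 4 and 0 in pIVCL against 394 and 273 in sham, had 415 and 363 MPM in sham 1 and 2. The log2 values of angiogenic cells, periportal cells and sinusoidal cells with no zone name lie nearer 0 than the -1.94 over all endothelial cells. The part of subtype make-up in the value over all endothelial cells was not tested.

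The type IV chains made up most endothelial collagen. Basement membrane members held 84.1, 90.3 and 88.4% of endothelial collagen molecules in pIVCL and 72.7 and 70.9% in sham, and transmembrane members 6.59, 4.62 and 3.15% in pIVCL and 19.98 and 20.6% in sham. Col4a2 was at 499, 758 and 754 CPM in pIVCL and 414 and 348 CPM in sham, and Col4a1 at 1085, 1361 and 1523 CPM in pIVCL and 998 and 885 CPM in sham. Neither overlapped and neither passed, at log2 values of 0.81 ± 0.21 for Col4a2 (edgeR adjusted p = 0.0611) and 0.49 ± 0.17 for Col4a1 (adjusted p = 0.135). The ratio of Col4a2 to Col4a1 molecules in endothelial cells was 0.460, 0.556 and 0.495 in pIVCL and 0.415 and 0.393 in sham. In stellate cells it was 0.438, 0.499 and 0.442 in pIVCL and 0.358 and 0.458 in sham, which overlap. In batch 2021.3 alone the endothelial log2 values were 0.38 for Col4a2 and 0.20 for Col4a1.

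Central vein endothelial cells were the subtype in which both type IV chains were called higher. Col4a1 was at 1316, 1877 and 2174 MPM in pIVCL and 638 and 472 in sham, on 62, 60 and 54 cells in pIVCL and 39 and 22 in sham. Col4a2 was at 592, 1109 and 962 MPM in pIVCL and 295 and 150 in sham. All pIVCL libraries lay above both sham libraries in both genes. The log2 fold changes were 1.62 ± 0.25 for Col4a1 (3.08-fold, edgeR adjusted p = 5.0e-05) and 1.903 ± 0.31 for Col4a2 (3.74-fold, adjusted p = 0.000179), where 2.15% of genes tested in that subtype rose and 2.38% fell. The difference from the other subtypes was not tested. Neither chain passed in those tested. Col4a2 was at log2 values of 0.78 in angiogenic cells (edgeR adjusted p = 0.0774) and 0.61 in sinusoidal cells with no zone name (0.246). It was at 0.45 in large-vessel cells (0.510) and 0.24 in periportal cells (0.753). Col4a1 was at 0.37, 0.34, 0.39 and -0.065 in the same order. In periportal cells Col4a1 was at 633, 885 and 1007 MPM in pIVCL and 928 and 778 in sham, which overlap, and in angiogenic cells at 1282, 1477 and 1682 in pIVCL and 1218 and 1045 in sham. In large-vessel cells it was at 774, 637 and 1293 in pIVCL and 683 and 621 in sham, and none of the 4 members tested there passed, where 0.0821% of genes rose and 0.0274% fell.

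**Figure D4:**
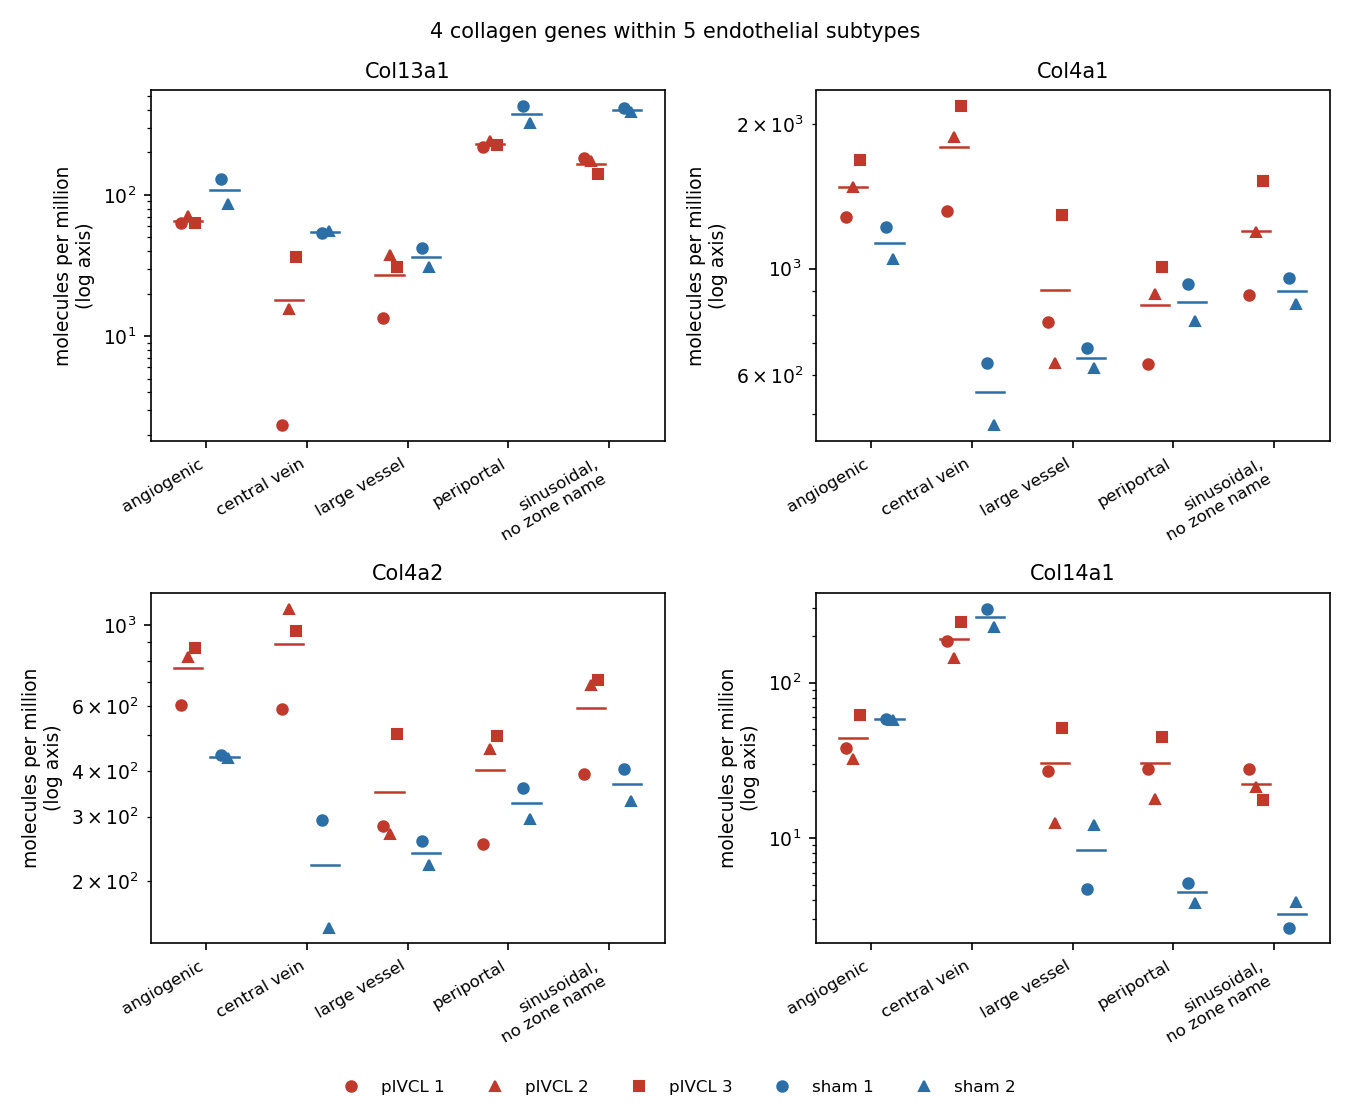
MPM (log axis) of Col13a1, Col4a1, Col4a2 and Col14a1 in 5 endothelial subtypes, 1 marker per library, pIVCL left of sham, bars at group means. In central vein cells the lowest pIVCL library has 1316 MPM of Col4a1 and the highest sham library 638. In sinusoidal cells with no zone name the highest pIVCL library has 183 MPM of Col13a1 and the lowest sham library 384.

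Col14a1 rose 5.68-fold in endothelial cells, at 42.8, 33.5 and 69.6 CPM in pIVCL and 8.48 and 8.38 CPM in sham (log2 fold change 2.50 ± 0.32, edgeR adjusted p = 0.00855). These levels are far below the 9200.0 to 9830 CPM of pIVCL stellate cells, and classes that should lack the gene had it too. Kupffer cells had Col14a1 at 60.2, 33.4 and 15.9 MPM in pIVCL and 16.7 and 24.3 in sham, and T cells 27.1, 3.00 and 5.02 in pIVCL and 16.2 and 4.84 in sham. After thinning, 3.28, 2.35 and 3.55% of endothelial cells had a Col14a1 molecule in pIVCL and 0.560 and 0.592% in sham, against 5.11, 3.93 and 1.39% of Kupffer cells in pIVCL and 1.23 and 2.62% in sham. Without thinning the shares were 10.9, 6.74 and 10.5% of endothelial cells in pIVCL and 2.24 and 2.62% in sham, and 23.4, 16.1 and 6.95% of Kupffer cells in pIVCL and 9.19 and 10.7% in sham, whose median depths were 5878.5 to 7263 molecules in pIVCL and 8592.5 to 9698 in sham. The endothelial shares lay below the Kupffer shares of the same library except in pIVCL 3, so at this depth they do not set endothelial cells apart from Kupffer cells in the other 4 libraries. Central vein cells were above the Kupffer level, at 184, 144 and 244 MPM in pIVCL and 299 and 228 in sham, overlapping between groups (log2 value -0.54, adjusted p = 0.349). Angiogenic cells had 38.1, 32.1 and 61.8 MPM in pIVCL and 58.2 and 57.7 in sham, also overlapping and in sham above the Kupffer level. Col14a1 was called higher in periportal cells, at 27.9, 17.98 and 44.9 MPM in pIVCL and 5.13 and 3.82 in sham (adjusted p = 0.0343), where 0.367% of genes rose and 0.293% fell, and in sinusoidal cells with no zone name, at 27.8, 21.4 and 17.5 in pIVCL and 2.66 and 3.87 in sham (adjusted p = 0.00116). In the latter, pIVCL 3 had 0, 1 and 3 Col14a1 molecules by cluster. In both subtypes Col14a1 passed the filter on low counts only through pIVCL, where it is high, so only a rise could come out. Neither subtype call is therefore taken as a result. The 14 stellate markers in endothelial cells summed to 217, 173 and 287 MPM in pIVCL and 193 and 209 in sham, none of them at 0, with 7 of the 14 higher and 1 lower in every pIVCL library. The 12 hepatocyte markers there summed to 615, 518 and 541 in pIVCL and 294 and 166 in sham. The part of either in the endothelial Col14a1 values was not tested. The call over all endothelial cells was lost in the fit with a batch term (adjusted p = 0.0760) and without sham 1 (0.0930) or sham 2 (0.0782).

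Col5a1 and Col6a3 were also called higher in endothelial cells, at low levels. Col5a1 passed the filter on low counts only through pIVCL, where it is high, so only a rise could come out for it. Col5a1 had 4.38, 6.27 and 9.63 CPM in pIVCL and 1.14 and 1.45 CPM in sham (log2 fold change 2.34 ± 0.44, edgeR adjusted p = 0.0250), and in Kupffer cells 4.26, 3.20 and 0.443 MPM in pIVCL and 2.04 and 2.40 in sham. Col6a3, a chain of type VI collagen, had 15.5, 5.99 and 10.2 CPM in pIVCL and 2.99 and 2.74 CPM in sham (1.87 ± 0.41, adjusted p = 0.0397). The groups overlapped in neither gene. Central vein cells held most Col6a3, at 156, 34.5 and 62.6 MPM in pIVCL and 152 and 181 in sham, and they overlap. In batch 2021.3 alone Col5a1 was at 1.75 (adjusted p = 0.0614) and Col6a3 at 2.42 (adjusted p = 0.000597). The 11 fibroblast markers in endothelial cells summed to 194, 232 and 375 MPM in pIVCL and 147 and 130 in sham, with 2 of the 11 higher and 2 lower in every pIVCL library and Mfap5 at 0 in all, and the 10 Kupffer markers to 103, 205 and 234 in pIVCL and 84.1 and 98.8 in sham, with 6 of the 10 higher. The part of either in these results was not tested. Col5a1 lost its call in the fit with a batch term (adjusted p = 0.0873) and when sham 1, sham 2, pIVCL 2 or pIVCL 3 was left out (adjusted p 0.0554 to 0.227), and Col6a3 without sham 1, sham 2 or pIVCL 3 (0.0970 to 0.267). With the replicate number as a block, Col5a1 was at 2.02 (adjusted p = 0.0585) and Col6a3 at 1.80 (adjusted p = 0.0835).

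Col27a1, a fibrillar collagen best known from cartilage, fell in endothelial cells. It had 20.7, 18.8 and 21.2 CPM in pIVCL and 35.3 and 34.4 CPM in sham, with no overlap and little spread within either group (log2 fold change -0.79 ± 0.14, edgeR adjusted p = 0.0215). In periportal cells alone it was at 46.5, 33.6 and 52.4 MPM in pIVCL and 41.7 and 36.3 in sham, which overlap, at a log2 value of 0.08. The call was lost without sham 1, sham 2, pIVCL 2 or pIVCL 3 (adjusted p 0.0557 to 0.232) under the replicate block (0.113) and with batch as a term (0.0600).

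Members of larger vessels did not pass in the endothelial class. Col8a1, which encodes a collagen of vessel walls, had 8.03, 6.42 and 1.38 CPM in pIVCL and 18.5 and 26.1 CPM in sham, without overlap (log2 value -1.97, edgeR adjusted p = 0.0521). Within large-vessel cells it was at 357, 268 and 51.3 MPM in pIVCL and 303 and 403 in sham, which overlap. Large-vessel cells numbered 39, 42 and 23 in pIVCL and 156 and 138 in sham. The lymphatic markers Ccl21a and Mmrn1 were among the 10 leading genes of their cluster, and no cluster was named lymphatic. Col5a2 was at 23.5, 23.5 and 49.8 CPM in pIVCL and 52.9 and 55.3 CPM in sham over all endothelial cells (log2 value -0.78, adjusted p = 0.189), and at 296, 312 and 431 MPM in pIVCL and 277 and 358 in sham within large-vessel cells. Of the other fibrillar members, Col1a1 had 15.3, 1.71 and 5.50 CPM in pIVCL and 2.64 and 3.59 in sham (adjusted p = 0.357), Col1a2 was at a log2 value of 1.15 (adjusted p = 0.151) and Col3a1 at 1.25 (adjusted p = 0.119). Col4a3 and Col4a4, chains of the type IV network of specialised basement membranes, were at -1.66 and -1.06 (adjusted p = 0.102 and 0.157). The remaining members tested, Col15a1, Col16a1, Col17a1, Col18a1, Col19a1, Col23a1, Col25a1, Col6a1 and Col6a2, lay between -0.37 and 3.66 and did not pass. In angiogenic cells alone Col6a1 was at 3.28, 1.32 and 2.19 MPM in pIVCL and 45.2 and 14.4 in sham (14 and 4 molecules in sham). It passed the filter on low counts only through sham, where it is high, so only a fall could come out. Its call (edgeR adjusted p = 0.0193, where 0.213% of genes rose and 0.345% fell) is therefore not taken as a result.

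**Figure D5:**
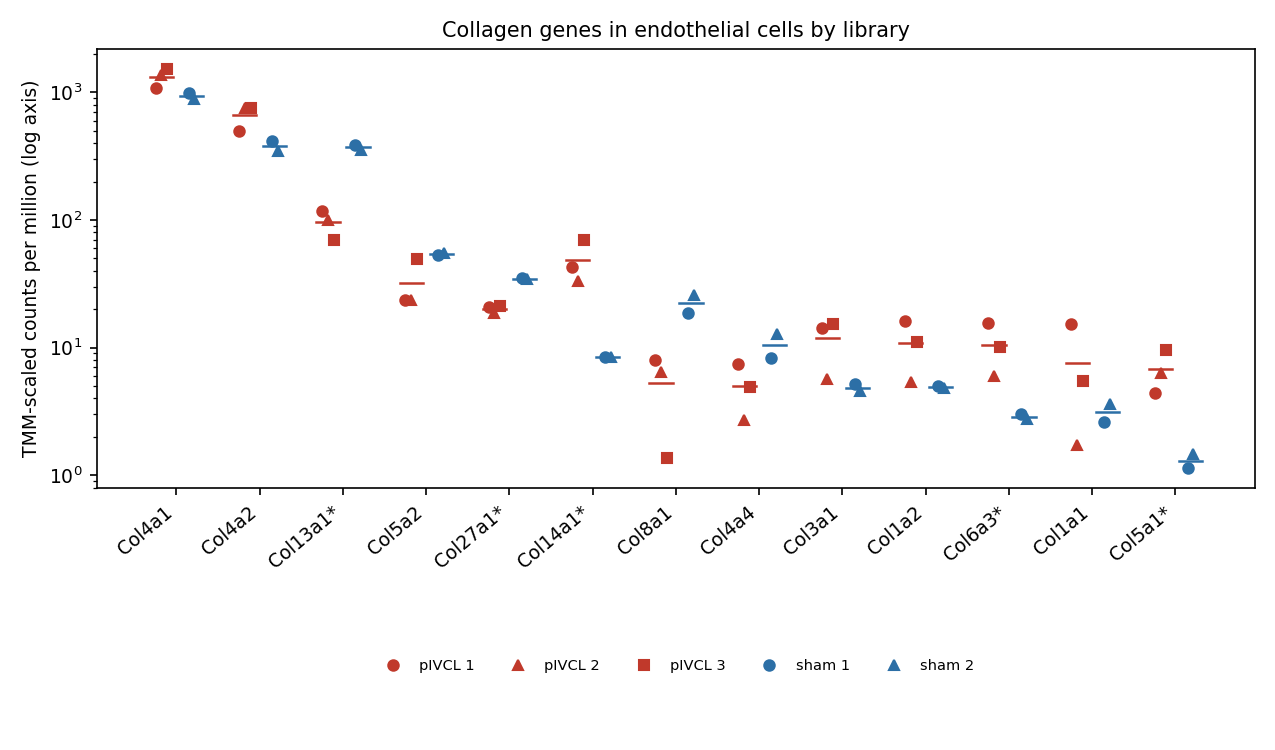
TMM-scaled CPM (log axis) in endothelial cells for the 12 members with at least 200 molecules there and for Col5a1, 1 marker per library, pIVCL left of sham, bars at group means and an asterisk at an edgeR adjusted p under 0.05. Col13a1 and Col27a1 lie lower and Col14a1, Col5a1 and Col6a3 higher in pIVCL, while the Col4a1 markers lie between 885 and 1523.

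Large-vessel, central vein and cycling cells were then left out, and no cluster was named lymphatic. In the rest, 20 members were tested among 10943 genes and the same 5 passed, 3 higher (3.58% of all genes rose) and 2 lower (3.37% fell, 6.95% in either direction). The libraries did not overlap in 13 of the 20, where 44.2% of all genes did not. The log2 fold changes in these sinusoidal cells were -1.92 for Col13a1 (edgeR adjusted p = 0.00139), 2.99 for Col14a1 (0.00205), 2.72 for Col6a3 (0.00756), -0.81 for Col27a1 (0.0162) and 2.35 for Col5a1 (0.0200). Here Col5a1 and Col6a3 passed the filter on low counts only through pIVCL, where they are high. Only a rise could come out for them, so nothing is drawn from their part in these counts. With likely doublets kept 2 passed, and without sham 1 or sham 2 also 2.

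Kupffer cells, with 235, 305 and 374 cells in pIVCL and 816 and 534 in sham, gave the level in a class known to make little collagen. Collagens summed to 201, 258 and 119 MPM there in pIVCL and 103 and 134 in sham. None of the 9 members tested among 9775 genes passed edgeR's test (3 had an unadjusted p under 0.05, and DESeq2's Wald test called 1), where 0.0409% of all genes rose and 0.0205% fell. The libraries did not overlap in 2 of the 9, where 31.5% of all genes did not. Col27a1 came nearest, at 6.75, 5.98 and 6.05 CPM in pIVCL and 16.5 and 21.1 CPM in sham, without overlap (log2 value -1.58, adjusted p = 0.0855). Col11a2 was at 15.3, 18.4 and 19.9 CPM in pIVCL and 12.2 and 12.6 CPM in sham, also without overlap (0.54, adjusted p = 0.353). Col4a1 had 22.7, 90.6 and 15.1 CPM in pIVCL and 17.0 and 21.1 in sham, high in pIVCL 2 alone, and Col4a2 12.9, 46.4 and 5.19 in pIVCL and 7.30 and 8.99 in sham. Col1a1, Col1a2, Col3a1 and Col14a1 overlapped between groups, at 3.68 to 60.8 CPM in pIVCL and 2.56 to 24.9 in sham. In T cells collagens summed to 149, 150 and 103 MPM in pIVCL and 91.4 and 59.6 in sham. In B cells they summed to 207, 131 and 106 MPM in pIVCL and 156 and 34.2 in sham, and in cholangiocytes to 728, 887 and 746 in pIVCL and 724 and 723 in sham.

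Whether the response of a member differed between stellate and endothelial cells was tested directly, for 22 members among 11336 genes. Col4a1 and Col8a1 had a higher effect in stellate cells, where 0.379% of all genes did, and Col6a3 a lower one, where 0.238% did (0.618% in either direction). The stellate minus endothelial difference in log2 effect was 0.85 ± 0.19 for Col4a1 (edgeR adjusted p = 0.0399), 2.65 ± 0.48 for Col8a1 (0.0102) and -1.78 ± 0.32 for Col6a3 (0.00934). Within large-vessel endothelial cells alone Col8a1 was at a log2 value of -0.59 (edgeR adjusted p = 0.681). Those cells averaged 1.21% of cells in pIVCL and 3.67% in sham. The part of endothelial subtype make-up in these differences was not tested. Col4a2 at 0.72 (0.114), Col5a2 at 1.09 (0.220), Col5a1 at -1.33 (0.0552) and Col14a1 at -0.97 (0.392) did not pass. The Col4a1 call was lost with DESeq2 size factors (0.0595), with batch as a term (0.183), in batch 2021.3 alone (0.678) and without sham 2 (0.357), pIVCL 2 (0.279) or pIVCL 3 (0.0958). That of Col8a1 was lost in batch 2021.3 alone (0.0622) and without sham 1 (0.131), sham 2 (0.203) or pIVCL 2 (0.0744), and that of Col6a3 without sham 1 (0.129) or sham 2 (0.165).

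Summing all retained cells of a library gave 36 members to test among 13737 genes. Of these, 3 rose, where 0.997% of all genes rose, and 1 fell, where 0.32% fell (1.32% in either direction). The libraries did not overlap in 22 of the 36, where 42.2% of all genes did not. Col14a1 was at 1102, 936 and 565 CPM in pIVCL and 79.7 and 74.4 CPM in sham, 11.3-fold higher (log2 fold change 3.49 ± 0.34, edgeR adjusted p = 0.0208). Col5a1 was at 101, 80.3 and 60.4 CPM in pIVCL and 12.7 and 14.2 CPM in sham (2.58, adjusted p = 0.0208), and Col16a1 at 24.5, 20.5 and 15.1 in pIVCL and 3.53 and 4.01 in sham (2.41, adjusted p = 0.0251). Stellate cells held 82.1, 91.2 and 87.3% of a library's Col14a1 in pIVCL and 56.3 and 29.7% in sham, 67.3, 83.9 and 76.6% of its Col5a1 in pIVCL and 42.1 and 17.5% in sham, and 71.7, 84.6 and 55.9% of its Col16a1 in pIVCL and 36.6 and 12.6% in sham. Both the share of stellate cells and, within them, the level of Col14a1 were higher in every pIVCL library. Col13a1 was at 69.3, 57.9 and 33.3 CPM in pIVCL and 224 and 211 CPM in sham (-2.02, adjusted p = 0.0439). Col1a1 was at 682, 177 and 331 CPM in pIVCL and 134 and 278 CPM in sham, which overlap, at a log2 value of 0.95 (adjusted p = 0.416), and without the cluster of 28 cells its value was -0.18 (adjusted p = 0.887). Col4a1 (0.70), Col4a2 (0.95), Col1a2 (1.23) and Col3a1 (1.44) did not overlap and did not pass (adjusted p 0.111 to 0.213). The Col13a1 call was also lost with batch as a term (-1.65, adjusted p = 0.138). None of the 4 calls held without sham 1, sham 2 or pIVCL 2, nor with at least 1000 molecules and at most 10% mitochondrial molecules per cell.

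The genes that make, cut, cross-link and bind collagen were read from 4 lists. Of 21 enzymes of collagen modification and folding, 21 were tested in endothelial cells, of which 2 rose, 1 fell and 18 did not pass, where 2.63% of all genes rose and 2.65% fell. Fkbp10, a chaperone that aids cross-linking of collagen, had 11.5, 9.13 and 15.1 CPM in pIVCL and 2.21 and 2.31 in sham (log2 fold change 2.37, edgeR adjusted p = 0.00739). P3h3, of the prolyl 3-hydroxylase family, had 14.01, 17.3 and 25.04 CPM in pIVCL and 7.55 and 8.04 in sham (1.24, adjusted p = 0.0368). Colgalt2, a galactosyltransferase of collagen hydroxylysine, fell to 6.13, 8.84 and 4.95 CPM in pIVCL, against 21.7 and 18.5 in sham (-1.56, adjusted p = 0.0141). None of the 3 overlapped between groups. The median log2 fold change of the 21 was 0.38. In stellate cells 19 of the 21 were tested and none passed (edgeR), with a median of 0.42.

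Of 12 genes of propeptide cleavage and cross-linking, 6 were tested in endothelial cells and 1 rose, Tll1, a protease of the procollagen C-propeptide family, at 2.04, 2.28 and 5.50 CPM in pIVCL and 0.142 and 0.171 in sham (adjusted p = 0.0222), where 2.63% of all genes rose. In stellate cells 0 of 9 tested passed edgeR's test, where 0.19% of all genes rose. Lox, which oxidises lysines for cross-links, was at 29.2, 53.9 and 45.8 CPM in stellate cells of pIVCL and at 0 in both sham libraries, with 68 and 26 sham cells (adjusted p = 0.0684). Lox passed the filter on low counts in stellate cells only through pIVCL, so only a rise could come out there. Its difference from endothelial cells (adjusted p = 0.00934 by edgeR's interaction test) is therefore not taken as a result. No fold is given because sham stellate cells were at 0. Of 10 collagen receptors 6 were tested in endothelial cells, and Ddr2, a receptor tyrosine kinase for fibrillar collagen that stellate cells are known to carry, rose (2.63% of all genes did), at 3.65, 5.85 and 8.80 CPM in pIVCL and 1.21 and 1.63 in sham (2.06, adjusted p = 0.0417). Neither Tll1 nor Ddr2 would have passed the filter on low counts through its sham libraries, so only a rise could be called for them. In stellate cells 0 of 5 tested passed.

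Of 12 collagen-binding matrix proteins, 11 were tested in stellate cells and 1 rose, where 0.19% of all genes rose. Sparc, a matrix protein that binds collagen and accompanies its export, had 11182, 15253 and 18182 CPM in pIVCL and 5693 and 3587 in sham, without overlap (log2 fold change 1.68 ± 0.28, edgeR adjusted p = 0.0341). In endothelial cells it was at 2407, 3905 and 4457 CPM in pIVCL and 2203 and 2012 in sham and did not pass (0.77, adjusted p = 0.117), and the stellate effect was the larger by 1.019 (adjusted p = 0.00934). Thbs2 also differed between the classes, by 2.32 (adjusted p = 0.0320), at 102, 77.2 and 106 CPM in stellate cells of pIVCL and 80.8 and 32.5 in sham. Its stellate libraries overlap and it was not called in stellate cells, so the difference is not read as a stellate rise. Over all retained cells 3 of the 12 rose, namely Thbs1 (2.64), Dcn (2.45) and Fn1 (2.18), and so did Adamts2 (1.71), Tll1, P3h3 (1.54) and Ddr2 (2.29) of the other lists (adjusted p 0.00904 to 0.0489), where 0.997% of all genes rose. No gene of the whole table rose without sham 1, sham 2 or pIVCL 2, so all of these calls were lost then.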

How the data were processed

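Molecules were counted per gene and cell in 5 libraries (3 pIVCL, 2 sham). The deposited values are counts of molecules after recursive substitution error correction, made by the authors with the BD WTA Rhapsody Analysis Pipeline 1.9.1, per the file headers, on GRCm39, per the submitters' processing notes. The aligner is not given in the sources used here, nor is the annotation. No ambient-RNA correction was made.

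Cells with at least 500 molecules, at least 200 genes and at most 25% mitochondrial molecules were kept, and the 3% of each library with the highest scrublet scores (516 cells) were removed as likely doublets. Clusters (scanpy 1.11.5: 2000 variable genes without collagens, 30 components, 20 neighbours, Leiden resolution 1, mesenchymal cells again at 0.2, 36 clusters) were named when at least 3 and at least 50% of a class's markers were detected in 25% of cells at 2-fold (endothelial subtypes at 40%, 10% and 1.5-fold, Kupffer cells with Clec4f in 50% of cells). Clusters with markers of several classes stayed unnamed. Counts were summed per library and class (at least 20 cells in each library) and compared by edgeR 4.0.16 quasi-likelihood tests with TMM scaling and filterByExpr, with Benjamini-Hochberg adjustment over all genes of a class at 0.05. SE is the size of the log2 fold change over the square root of F. The difference between stellate and endothelial effects is an interaction with library as a block. Estimates for endothelial subtypes were chosen after seeing the data.

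CPM denotes TMM-scaled counts, and MPM unscaled molecules per 1000000. Depth was 12448260 to 30523228 molecules per library, and intervals cover counting error only. To compare shares of cells with a molecule, cells were thinned to 1000 molecules, leaving out 2 stellate, 2 endothelial and 14 Kupffer cells below that. Members, gene lists and markers were chosen with earlier results of these data known. In each tested class every member that passed, and every member with at least 200 molecules, was named or given in a range, the 6 most abundant members were named in each class, with up to 4 passing genes per pathway list. Alternatives were DESeq2 1.42.0 size factors and Wald tests, no filter, batch as a term or batch 2021.3 alone, a replicate block, each library left out, likely doublets retained, a stricter filter (1000 molecules, 10% mitochondrial), Leiden resolution 2 and collagens allowed in clustering. Added after seeing the data were endothelial subtypes alone, stellate cells with a mixed stellate and Kupffer cluster, and all cells without a cluster of 28. The tests were checked on simulated data with changes of 1.5, 2 and 4-fold. They recovered 22.4, 59.7 and 90.9% of these in endothelial cells (10 false among 125 calls). In stellate cells they recovered 0, 11.9 and 66.7% (1 false among 53 calls), so most simulated stellate changes of 2-fold were missed.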

Additional observations from a re-analysis of the deposited data

Results flagged for a closer look

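For 3 members the pIVCL effect differed between stellate and endothelial cells by an interaction test in edgeR. The stellate effect was above the endothelial one by a log2 value of 0.85 for Col4a1 (stellate 1.28, endothelial 0.49) and by 2.65 for Col8a1 (stellate 0.65, endothelial -1.97). It was below the endothelial one by 1.78 for Col6a3, a difference of -1.78 (stellate -0.03, endothelial 1.87). The part of endothelial subtype make-up in these differences was not tested.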

How the results depend on the processing

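Counts of members called differed by over 1.5 times between several settings. Endothelial calls (5) were 14 with no filter on low counts, 9 by DESeq2's Wald test, 9 in batch 2021.3 alone, 3 with the replicate block, and 1, 2, 0, 1 and 2 in angiogenic, central vein, large-vessel and periportal cells and sinusoidal cells with no zone name alone. Among the subtype calls, the filter on low counts set the direction of Col6a1 in angiogenic cells. It did the same for Col14a1 in periportal cells and in sinusoidal cells with no zone name. Sinusoidal calls (5) were 14 with no filter, 8 by the Wald test, 8 in batch 2021.3 alone, 2 with doublets kept and 3 at resolution 2. Stellate calls (2) were 6 with no filter, 6 by the Wald test, 6 with doublets kept, 4 with the stricter cell filter, 5 with the replicate block, 1 with batch as a term and 1 in batch 2021.3 alone. Kupffer calls (0) were 3 with no filter and 1 by the Wald test. Calls over all retained cells (4) were 10 by the Wald test, 8 in batch 2021.3 alone and 0 with the stricter filter. Calls of the difference between classes (3) were 7 with no filter and 5 with the stricter filter. Leaving out 1 library gave 1 to 12 endothelial, 2 to 11 sinusoidal, 0 to 6 stellate, 0 to 3 Kupffer, 0 to 6 calls over all cells and 0 to 5 of the difference. The share of all genes called moved as well, in endothelial cells from 5.28% to 10.5% with no filter, 9.51% by the Wald test, 7.69% in batch 2021.3 alone and 1.58% with the block, and in stellate cells from 0.19% to 1.35, 0.684, 1.78 and 2.05%. The cause was not tested. Same-numbered libraries shared deviations from their group means at r = -0.13 and -0.11 in endothelial and 0.26 and 0.19 in stellate cells, so the 2 shared numbers are not taken as pairs.

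Among values of single members, 79 lost and 71 gained a call, 18 turned their sign by at least the SE of the value or while called, and the other 555 kept their side of the threshold, some uncalled values near 0 turning by less than the SE (Col6a3 in stellate cells reached 0.12 without pIVCL 2). In endothelial subtypes alone these were Col14a1 (-0.44), Col1a1 (-2.31), Col1a2 (-2.18) and Col3a1 (-1.49) in angiogenic cells, Col14a1 (-0.54) and Col6a3 (-0.95) in central vein cells, Col27a1 (0.078) and Col4a1 (-0.065) in periportal cells and Col5a2 (0.051) in large-vessel cells. In stellate cells Col6a1 was 0.13 with batch as a term, 0.16 in batch 2021.3 alone, -0.43 to 0.35 with 1 library left out (highest without sham 1) and 0.40 with the mixed stellate and Kupffer cluster, Col6a3 was 0.37, 0.38 and 0.42 with batch as a term, in batch 2021.3 alone and with that cluster, and Col6a2 was -0.10 to 0.53 with 1 library left out (lowest without sham 2). Col1a1 over all retained cells was -0.18 without the cluster of 28 cells. Stellate values rest on 68 and 26 cells in the 2 sham libraries.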
